A study of Rattus norvegicus with 34 samples.

Results

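The livers of old and mature male rats of the F344 (Fischer) strain, an inbred albino strain much used in ageing research, were compared at 24 and 11 months of age. These are 8 of the 34 arrays of the series, 4 rats at 24 months and 4 at 11 months, chosen by the strain and age in their labels and by no measured value. All were untreated males, kept by their supplier until 1 week before necropsy and under a 12-h light cycle, and each gave 1 Affymetrix rat genome array of whole-liver RNA. Untreated F344 males of 6 and 18 months, 4 at each age, shared the estimate of the spread between rats, and untreated, individually housed male Brown Norway rats of 24 and 12 months, 3 at each age, served to set the change beside that of another inbred strain. The fit that compared the strains also held Brown Norway controls of 4 months and toluene-treated Brown Norway rats of 4, 12 and 24 months. The study asked how genes for the metabolism of foreign compounds change in ageing males. Time of day, feeding state and health of the rats are not given in the sources used here.

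The liver of the adult rat differs strongly between the sexes. Growth hormone reaches the male liver in pulses and the female liver at a steadier level, and the transcription factor STAT5b, activated by each pulse, keeps a male set of P450s, sulfotransferases, steroid dehydrogenases and urinary proteins on. The female set includes the P450 Cyp2c12 and the transcription factor Cux2, known from mouse liver as a repressor of male genes in females. Many of these enzymes act on steroids and drugs, so that the 2 sexes of rat clear many compounds at different rates.

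Array medians of the 8 livers lay between 45.5 and 47.0 signal units, and 32, the floor to which lower signals were raised before logs were taken, was exceeded by 59.7% to 60.7% of probe sets. For GAPDH, the signal of the 3' end over that of the 5' end, which rises when RNA is partly degraded, was 1.74, 1.38, 1.94 and 2.17 in rats 1 to 4 of 24 months, against 7.33, 3.74, 1.88 and 1.49 in rats 1 to 4 of 11 months. This ratio was thus above 2.5 in 0 of 4 old and 2 of 4 mature rats, and of 68 genes named by rule that passed the test below, 44 also passed with the arrays above it left out. With the ratio as a covariate in the fit, 478 genes passed, and 12 of the 68 lost their call, at adjusted p values of 0.0503 to 0.0854. Of 10 defining hepatocyte markers, among them albumin (Alb), transthyretin (Ttr) and Apoa1, none passed the test below, and their summed signal was 52812 to 54883 at 24 months and 52485 to 53882 at 11 months.

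Of 9206 genes tested, 453 (4.92%) passed at an adjusted p under 0.05 in limma's moderated test. At 24 months 239 genes (2.6%) were higher and 214 (2.32%) were lower, while the median log2 fold change of all genes was -0.01. A gene had to be above the floor on at least 4 of the 16 F344 arrays. Of the 239, 16 reached this filter only through the 24-month arrays, and 223 remained without them. The 11-month arrays alone brought in 0 of the 214. Changes of at least 2-fold were seen in 137 of the 453, of which 79 were higher and 58 lower. The groups did not overlap in 410 of the 453, beside 1125 (12.2%) of all genes tested. The count fell to 209 without rat 1 of 24 months, to 183 without rat 4 of 24 months and to 223 without rat 3 of 11 months. It was 305 without the F344 arrays of high GAPDH ratio, 277 with only the 8 arrays in the fit, 294 with a floor of 8 and 1021 with array quality weights. Signals come from whole tissue, in which fewer cells of a type and less RNA per cell cannot be told apart.

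**Figure D1:**
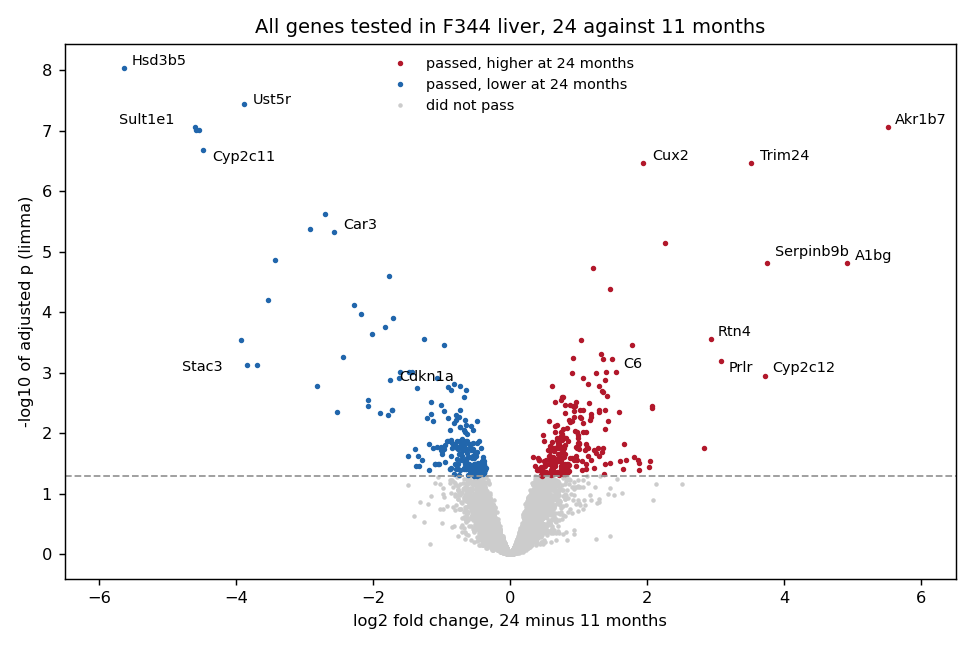
Each point is 1 of the 9206 genes tested, placed by its log2 fold change (24 minus 11 months, horizontal) and by -log10 of its adjusted p (vertical); the dashed line marks 0.05. The 453 that passed are coloured by direction, and the outermost on both sides, Hsd3b5 at -5.63 and Akr1b7 at 5.51, belong to the male and female patterns.

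Genes of the male pattern were much lower at 24 months. Of 14 tested genes known for male-biased expression in rat liver, 13 were lower, beside 2.32% of all genes. The median log2 fold change of the 14 was -3.66. The groups did not overlap in any of the 13, beside 12.2% of all genes tested without overlap. The remaining one, Rup2, had a log2 fold change of -0.09. With the 5 F344 arrays of high GAPDH ratio left out the count was 11, and 12 or 13 with any one of the 8 rats left out.

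Hsd3b5, a steroid dehydrogenase isoform of male liver, had signals of 50.6, 37.9, 71.2 and 13.7 in 24-month rats, against 2217, 2125, 3054 and 1850 in 11-month rats. Its lowest 11-month signal lay far above the highest 24-month one, and the gene was at least 49.7-fold lower at 24 months (adjusted p = 9.38e-09 for a log2 fold change of -5.63, SE 0.29). Sult1e1, which sulfates and so inactivates estrogens, had 472, 173, 342 and 132 in 24-month rats, against 5354, 5914, 6693 and 6137 in 11-month rats. Again without overlap, its signal was 24.3-fold lower, with a log2 fold change of -4.61, an SE of 0.30 and an adjusted p of 8.82e-08.

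The P450s of the male pattern metabolise testosterone and many drugs. Cyp2c11, the most abundant male-specific P450, had signals of 548, 208, 387 and 120 in 24-month rats and 6950, 6070, 5744 and 5387 in 11-month rats. This was a 22.3-fold lower signal (adjusted p = 2.08e-07 for a log2 fold change of -4.48, SE 0.32). Cyp3a2, the male form of the 3A family, had 219, 210, 542 and 117 in 24-month rats and 5185, 5482, 5806 and 5123 in 11-month rats, 23.2-fold lower (adjusted p = 9.65e-08). In both genes rat 4 was the lowest of the old rats. Cyp2a2, a testosterone hydroxylase, varied more among the old rats, with 328, 62.0, 776 and 120, against 4178, 3018, 2810 and 2854 at 11 months (log2 fold change -3.92, SE 0.51, adjusted p = 0.000287).

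Cyp2c13 varied among the old rats as well. It had 1485, 387, 2842 and 361 at 24 months, against 5560, 5021, 5041 and 4577 at 11 months (log2 fold change -2.52, SE 0.46, adjusted p = 0.0044). The groups did not overlap, but the gene did not pass without the arrays of high GAPDH ratio (adjusted p = 0.0895), nor with only the 8 arrays in the fit, and its probe set, of the suffix _s_at, is of a kind that may also bind related transcripts. Cyp3a18 had a smaller change, to 1193 ± 440 at 24 months against 3740 ± 539 at 11 months (SD, n = 4 each; log2 fold change -1.71, SE 0.21, adjusted p = 0.000124).

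Male genes outside the P450s fell as well. Obp3, a small carrier protein of the urinary globulin family, had 277, 242, 231 and 92.8 in 24-month rats and 4591, 5098, 5063 and 3930 in 11-month rats (log2 fold change -4.58, SE 0.30, adjusted p = 9.65e-08), measured by a probe set of the suffix _x_at, which may bind its close relatives too. Ust5r, an organic anion transporter relative, had 74.8, 92.9, 105 and 45.7 in 24-month rats and 810, 1230, 1424 and 1127 in 11-month rats (log2 fold change -3.89, SE 0.23, adjusted p = 3.65e-08). Car3, the carbonic anhydrase abundant in male liver, had 910, 1127, 1758 and 779 in 24-month rats and 5792, 6583, 8079 and 5709 in 11-month rats, 5.95-fold lower (adjusted p = 4.81e-06). The smallest change that passed was that of the uptake transporter Slco1a1, with a log2 fold change of -0.49.

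**Figure D2:**
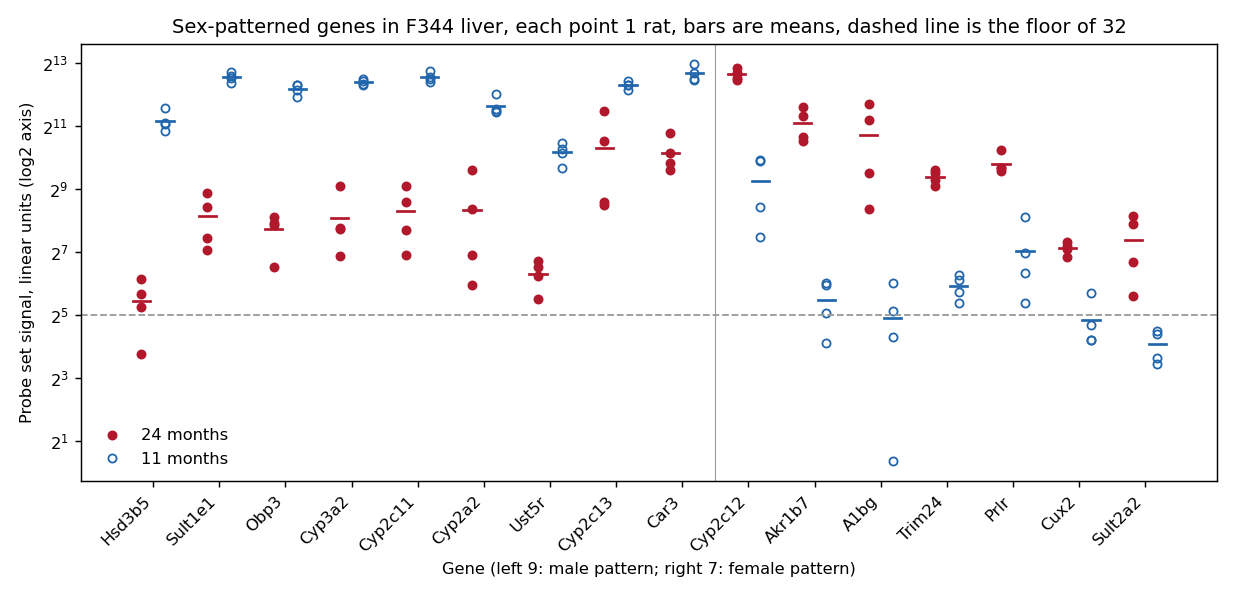
Signals of 16 genes of the male (left) and female (right) patterns on a log2 axis, 1 point per rat, with filled points for 24 months to the left of open points for 11 months and bars at the means. The 2 ages do not overlap in any of the 16 genes, which the rule required of those named by size. The old rats spread most in Cyp2a2, Cyp2c13 and A1bg.

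Genes of the female pattern were mostly higher at 24 months. Of 12 tested genes listed for a female pattern 9 were higher, beside 2.6% of all genes, and the median log2 fold change of the 12 was 2.01. The sex bias of the listed genes was not tested here. A1bg, Cux2 and Sult2a2 reached the filter on low signals only through the 24-month arrays, and without these 3 the count was 6 of 9, at a median of 1.89. Fmo1, a flavin monooxygenase, was the 1 that was lower, a call lost in 6 of 21 alternatives (with no filter, with the high-GAPDH arrays left out, without rat 1, 2 or 4 of 24 months and without rat 3 of 11 months), and Cyp3a9 (-0.02) and Cyp2c7 (0.24) did not pass. With any one of the 8 rats left out 7 to 9 were higher, and 8 without the arrays of high GAPDH ratio.

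Cyp2c12, the female-specific steroid sulfate hydroxylase, had signals of 5712, 6662, 5935 and 7441 in 24-month rats, against 177, 957, 973 and 342 in 11-month rats. The old males thus held 13.1 times the signal (log2 fold change 3.72, SE 0.56, adjusted p = 0.00112), with all 4 above every mature rat. Akr1b7, an aldo-keto reductase, had 1623, 2540, 1465 and 3104 in 24-month rats and 17.2, 64.5, 62.5 and 33.4 in 11-month rats, at least 45.7-fold higher (log2 fold change 5.51, SE 0.36, adjusted p = 8.82e-08). A1bg, a plasma glycoprotein, had 737, 2341, 333 and 3370 in 24-month rats, against 1.27, 34.6, 64.9 and 19.5 in 11-month rats, at least 30.3-fold higher (adjusted p = 1.55e-05).

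Among female-pattern regulators, Trim24, a transcriptional co-regulator, had 737, 627, 546 and 785 in 24-month rats and 53.2, 76.7, 42.0 and 68.5 in 11-month rats (log2 fold change 3.51, SE 0.26, adjusted p = 3.49e-07). Cux2 had 146, 136, 115 and 160 in 24-month rats, against 18.4, 51.5, 25.4 and 18.4 in 11-month rats, where 3 of the 4 arrays lay under the floor, so that its 3.84-fold rise is a lower bound (adjusted p = 3.49e-07). Prlr, the prolactin receptor, had 806, 817, 761 and 1210 in 24-month rats and 277, 80.4, 42.0 and 125 in 11-month rats (log2 fold change 3.08, SE 0.44, adjusted p = 0.000633). None of the 3 genes overlapped between the ages, beside 12.2% of all genes tested without overlap. Sult2a2, a hydroxysteroid sulfotransferase, had 48.1, 235, 103 and 282 at 24 months and under 32 in all 11-month rats, yet failed without the arrays of high GAPDH ratio (adjusted p = 0.0747) or with only the 8 arrays in the fit.

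The old rats differed among themselves in how far each pattern had moved. The mean log2 signal of the 14 male genes, taken relative to the 11-month mean, was -2.89, -3.45, -2.46 and -3.79 in rats 1 to 4 of 24 months, against -0.02, -0.02, 0.15 and -0.11 in rats 1 to 4 of 11 months. The mean of the 12 female genes was 1.92, 2.34, 1.95 and 2.61 in the old rats and -0.28, 0.15, 0.07 and 0.07 in the mature rats. The female mean includes A1bg, Cux2 and Sult2a2, which reached the filter only through the 24-month arrays, and no mean without them is given. Rat 4 of 24 months was farthest from the mature rats in both patterns, and rats 1 and 3 were nearest.

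The promoters of 4 of these genes are shown because the genes moved in opposite directions, and because STAT5 and BCL6 bind the letters TTCNNNGAA, while HNF6 and CUX2 bind cores written ATCAAT, or ATTGAT on the other strand. The sequences are those of RefSeq on GRCr8, from 250 bases before to 50 after the annotated start, on the strand of the gene, with matches in capitals. A1bg lies at chr7:94387447-94387746 (minus strand), Cyp2c12 at chr1:248676985-248677284 (minus strand), Obp3 at chr5:79640626-79640925 (minus strand) and Cyp2c11 at chr1:246174966-246175265 (plus strand).
A1bg: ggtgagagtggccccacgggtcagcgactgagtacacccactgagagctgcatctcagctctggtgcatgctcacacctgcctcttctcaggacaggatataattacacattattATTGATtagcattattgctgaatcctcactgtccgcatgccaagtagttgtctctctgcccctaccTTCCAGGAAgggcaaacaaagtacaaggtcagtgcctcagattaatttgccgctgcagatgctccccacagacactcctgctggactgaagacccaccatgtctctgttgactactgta
Cyp2c12: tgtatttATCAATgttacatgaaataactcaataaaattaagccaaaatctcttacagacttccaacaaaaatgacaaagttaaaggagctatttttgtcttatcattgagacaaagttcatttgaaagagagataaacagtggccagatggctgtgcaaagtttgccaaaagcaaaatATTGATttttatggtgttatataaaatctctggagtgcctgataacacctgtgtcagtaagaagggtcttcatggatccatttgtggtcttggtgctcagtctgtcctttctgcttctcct
Obp3: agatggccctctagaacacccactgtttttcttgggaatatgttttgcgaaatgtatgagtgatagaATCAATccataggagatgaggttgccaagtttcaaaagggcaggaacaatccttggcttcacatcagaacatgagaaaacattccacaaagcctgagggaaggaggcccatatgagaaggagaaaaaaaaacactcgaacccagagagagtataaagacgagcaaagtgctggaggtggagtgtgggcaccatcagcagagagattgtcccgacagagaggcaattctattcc
Cyp2c11: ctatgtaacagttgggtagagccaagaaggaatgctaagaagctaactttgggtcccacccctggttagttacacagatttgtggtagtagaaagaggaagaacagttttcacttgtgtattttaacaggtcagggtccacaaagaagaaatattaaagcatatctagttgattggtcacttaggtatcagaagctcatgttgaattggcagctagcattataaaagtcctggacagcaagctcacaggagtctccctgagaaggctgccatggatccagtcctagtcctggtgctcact

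Of the 13 male- and female-pattern genes among the 10 largest changes in each direction, 11 had a promoter in the table. TTCNNNGAA was found in 1 of the 11 (A1bg), beside 8.87% of all 33469 rat promoters of the same length. ATCAAT or ATTGAT was found in 5 (Obp3, Ust5r, A1bg, Cyp2c12 and Trim24), beside 8.06% of all promoters. The motifs do not overlap each other in these windows, both strands were read, and the counts describe these letters alone.

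Of 14 tested genes of growth hormone, prolactin and IGF signalling, the pathway above these genes, Prlr and Igfbp1 were higher, beside 2.6% of all genes, and the median log2 fold change was 0.01. Igf1, the main product of growth hormone action on the liver, had 5268, 5250, 4192 and 5219 in 24-month rats and 5324, 5027, 4816 and 4371 in 11-month rats (log2 fold change 0.03, SE 0.11, adjusted p = 0.922). The growth hormone receptor Ghr averaged 2369 ± 187 at 24 months and 2135 ± 229 at 11 months (SD, n = 4 each; adjusted p = 0.498). Both genes overlapped between the ages.

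Stat5b was dim, at 35.8 ± 7.36 in 24-month rats and 52.3 ± 13.6 in 11-month rats (SD, n = 4 each; log2 fold change -0.47, SE 0.19, adjusted p = 0.17), and passed without the arrays of high GAPDH ratio (log2 fold change -0.70, adjusted p = 0.0419), with array quality weights, and without rat 1 of 11 months. Bcl6, a repressor known from mouse liver to share sites with STAT5, had 153, 49.0, 51.7 and 57.2 at 24 months and 356, 121, 79.7 and 311 at 11 months, a wide spread in which it did not pass (adjusted p = 0.228). Igfbp1, an IGF carrier that rises in fasting, averaged 199 ± 36.9 at 24 months and 63.1 ± 19.7 at 11 months (SD, n = 4 each; adjusted p = 0.0272), a call lost in 10 of 21 alternatives. Of 18 tested liver transcription factors and nuclear receptors, Trim24 and Cux2 were higher, beside 2.6% of all genes. Cux2 reached the filter on low signals only through the 24-month arrays. Hnf4a (-0.14) did not pass, nor did Onecut1, which encodes HNF6 (log2 fold change 1.45, adjusted p = 0.0791).

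Many of the other drug-metabolising enzymes had log2 fold changes nearer to 0. Of 23 tested P450s of families 1 to 3, 11 were lower and 2 higher, beside 2.32% and 2.6% of all genes, and the median log2 fold change was -0.15; 7 of these 13 are genes of the lists above. Those outside them were Cyp2d4 (-1.36), Cyp2b3 (-0.90), Cyp2j4 (-0.63), Cyp1a2 (-0.61), Cyp2d3 (-0.46) and Cyp2d2 (-0.42), all lower. The lower count was 5 with the arrays of high GAPDH ratio left out and 8 without rat 4 of 24 months. Cyp2e1 (-0.04) and Cyp3a23-3a1 (-0.15), which oxidise many solvents and drugs, did not pass.

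Conjugating enzymes gave 9 lower and 3 higher among 37 tested, beside 2.32% and 2.6% of all genes, with a median of -0.24. Of the 3, Sult2a2 reached the filter on low signals only through the 24-month arrays, and the count without it was 2. Inmt, an indolethylamine methyltransferase, had 116, 168, 108 and 41.6 in 24-month rats and 858, 1544, 1529 and 779 in 11-month rats (log2 fold change -3.53, SE 0.40, adjusted p = 6.32e-05), without overlap. Gstp1, the placental-type glutathione transferase used as a marker of altered foci in rat liver, had 364, 290, 600 and 294 in 24-month rats and 105, 225, 116 and 197 in 11-month rats (log2 fold change 1.28, SE 0.29, adjusted p = 0.0173). Its call was lost without rat 3 of 11 months, with only the 8 arrays and with no filter, at an adjusted p of up to 0.0626. The lower count of the list was 5 with those of high GAPDH ratio left out and 3 without rat 4 of 24 months.

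Of 13 tested steroid reductases and dehydrogenases 6 were lower, beside 2.32% of all genes, and 0 higher, at a median of -0.36. Akr1c3, a hydroxysteroid dehydrogenase, had signals of 31.0, 11.9, 28.1 and 7.45 at 24 months, all under the floor, against 188, 171, 209 and 280 at 11 months, a drop of at least 6.51-fold (adjusted p = 2.38e-06). Dhrs7l1, a short-chain dehydrogenase with a male pattern, had 148, 196, 190 and 158 in 24-month rats and 1485, 1738, 2732 and 1688 in 11-month rats (log2 fold change -3.43, SE 0.34, adjusted p = 1.4e-05). Hsd11b1, which regenerates active glucocorticoid, was lower too (log2 fold change -1.07).

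Among 19 tested transporters of drugs and bile acids 4 were lower and 1 higher, beside 2.32% and 2.6% of all genes. The lower count was 1 without rat 1 of 24 months, and the higher count was 0 without rat 2 or 4 of 24 months or rat 1, 2 or 3 of 11 months. Slc22a8, the organic anion transporter OAT3, had 17.5, 17.4, 13.9 and 1.89 at 24 months, under the floor in every rat, against 285, 353, 790 and 364 at 11 months, a drop of at least 12.9-fold (adjusted p = 0.000742). A second Slc22a8 probe set gave a log2 fold change of -1.50 and did not pass (adjusted p = 0.157 in the fit of each probe set on its own). The hepatic uptake carrier Slco1b2 averaged 1818 ± 192 at 24 months and 2716 ± 364 at 11 months (SD, n = 4 each; log2 fold change -0.58, adjusted p = 0.0189), a call that was lost without rat 1 of 24 months and with the mean of its probe sets, the second of which had an adjusted p of 0.431. The exporters Abcc2 (-0.05), Abcb11 (0.07) and Abcg2 (-0.11) did not pass.

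In lipid and intermediary metabolism, Sqle and Mvd were higher among 15 tested genes of cholesterol synthesis and uptake, beside 2.6% of all genes, and the list median was 0.35. Sqle, which makes squalene epoxide, averaged 377 ± 48.2 at 24 months and 197 ± 75.9 at 11 months (SD, n = 4 each; log2 fold change 1.01, adjusted p = 0.0182), but neither gene passed without the arrays of high GAPDH ratio, without rat 1 or 4 of 24 months, or without rat 1 or 4 of 11 months. Insig2, which restrains sterol synthesis, had 998, 1235, 960 and 869 in 24-month rats and 1574, 1611, 2120 and 2363 in 11-month rats (log2 fold change -0.91, SE 0.17, adjusted p = 0.00568), and passed in all 21 alternatives.

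Insig2 was the 1 gene of 19 tested for fatty acid and triglyceride synthesis that passed, beside 4.92% of all genes. Among the 19, Elovl6 (2.13), Pnpla3 (2.51) and Scd (1.26) had large fold changes that did not pass. Scd2, a fatty acid desaturase not among those lists, had 107, 1429, 121 and 896 in 24-month rats and 28.2, 80.6, 49.6 and 50.3 in 11-month rats, so that rats 2 and 4 carried most of its rise (adjusted p = 0.0176), and it did not pass once rat 4 of 24 months was left out, once the arrays of high GAPDH ratio were left out, in a fit of only the 8 arrays, or with no filter. None of 20 fatty acid oxidation genes, 10 urea cycle genes or 23 respiratory chain genes passed. Of 12 tested bile acid genes Amacr and Acox2 were lower, of 26 amino acid breakdown genes Kynu and Bckdhb, and of 14 methionine cycle genes Gnmt and Shmt2, with log2 fold changes between -0.95 and -0.53 and beside 2.32% of all genes. Each of these 6 calls was lost in 2 to 11 of 21 alternatives, and none of the bile acid and amino acid genes was lower without rat 1 of 24 months.

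The genes named by size alone included several outside these pathways. Serpinb9b, a protease inhibitor relative, had 880, 1418, 483 and 898 in 24-month rats and 60.6, 85.6, 33.98 and 92.6 in 11-month rats (log2 fold change 3.75, SE 0.38, adjusted p = 1.55e-05). Rtn4, the reticulon known as Nogo, had 916, 1008, 1008 and 998 in 24-month rats and 84.1, 144, 108 and 212 in 11-month rats (log2 fold change 2.93, SE 0.38, adjusted p = 0.000281). Edil3, an extracellular integrin-binding protein, had 89.8, 198, 221 and 141 at 24 months and was under the floor in all 11-month rats, at least 4.80-fold higher (adjusted p = 7.27e-06). Stac3, an adaptor protein, had 127, 151, 344.4 and 67.9 in 24-month rats and 1151, 3126, 2959 and 1750 in 11-month rats (log2 fold change -3.84, SE 0.56, adjusted p = 0.000755). Lack of overlap between the ages was part of the rule that named these 4 genes.

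Of 59 plasma protein genes 3 passed, near the 4.92% of all genes. Of 21 acute-phase genes Lbp, the lipopolysaccharide-binding protein, was higher, at 1282 ± 398 at 24 months against 555 ± 120 at 11 months (SD, n = 4 each; adjusted p = 0.0273), a call lost in 8 of 21 alternatives. Of 21 complement and coagulation genes C6, a component of the membrane attack complex, had 3737, 5148, 2617 and 4598 in 24-month rats and 1483, 1153, 1367 and 1390 in 11-month rats (log2 fold change 1.54, SE 0.23, adjusted p = 0.00096), and the lectin Mbl2 was lower (-0.39, adjusted p = 0.0458, a call lost in 11 of 21 alternatives). C6 passed in all 21 alternatives. None of 17 plasma carriers passed.

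Immune genes had mostly positive, small fold changes. Of 9 tested MHC class II genes all had a positive log2 fold change, with a median of 0.91. RT1-DMa and RT1-DMb, which load peptides, were higher by the test, beside 2.6% of all genes. RT1-DMa averaged 83.0 ± 15.9 at 24 months and 41.3 ± 7.66 at 11 months (SD, n = 4 each; adjusted p = 0.0106) and passed in all 19 alternatives, while RT1-DMb lost its call in 11 of 21. Of 26 interferon-responsive genes 5 were higher, beside 2.6% of all genes, at a median of 0.34, among them Ifi44l (0.61), Ifit2 (0.80) and Herc6 (0.91), which passed in every alternative. A second Ifit2 probe set gave 1.24 and did not pass (adjusted p = 0.129 in the fit of each probe set on its own). Ifi44l had 475, 438, 438 and 479 in 24-month rats and 290, 319, 288 and 305 in 11-month rats (adjusted p = 0.00166), a narrow spread at both ages.

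Markers of blood-derived cells had mostly positive fold changes too, and the part of such cells in the immune results was not tested. Of 13 tested markers of T, NK and cytotoxic cells all had a positive log2 fold change. The filter on low signals can favour this sign in dim genes. Whether markers that did not pass entered only through the 24-month arrays was not examined. Of the 13 markers 4 were higher by the test (Cd8a, Gzma, Gzmk and Klrd1), beside 2.6% of all genes. Cd8a reached the filter on low signals only through the 24-month arrays, and the count without it was 3. The summed signal of the 13, Cd8a among them, was 731 to 2193 at 24 months, with rat 1 highest, and 534 to 814 at 11 months. The count of 4 became 1 with the arrays of high GAPDH ratio left out and 0 to 7 with 1 rat left out. It was 0 without rat 2 of 24 months or without rat 1, 3 or 4 of 11 months. Of 17 macrophage and Kupffer cell markers Fcer1g and Itgb2 were higher, beside 2.6% of all genes, and the count was 0 without rat 1 or rat 4 of 24 months. The summed signal of the 17 was 6728 to 8974 at 24 months and 5092 to 7470 at 11 months. Of 3 tested neutrophil and monocyte markers, S100a9 and S100a8 were higher, beside 2.6% of all genes. S100a8, under the floor in all 11-month rats, lost its call in 8 of 19 alternatives, among them without the arrays of high GAPDH ratio (adjusted p = 0.135). S100a9, a calcium-binding protein of neutrophils, had 300, 149, 266 and 207 in 24-month rats and 79.0, 118, 60.1 and 83.4 in 11-month rats (log2 fold change 1.43, SE 0.27, adjusted p = 0.00627).

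Other cell types were measured by the same rule. Of 4 tested bile duct markers Cldn7, which reached the filter only through the 24-month arrays, and Epcam were higher, beside 2.6% of all genes. The count without Cldn7 was 1. Krt19 (0.09) and Anxa4 (0.08) did not pass. The summed signal of the 4 was 425 to 511 at 24 months and 184 to 297 at 11 months. It includes Cldn7, so the filter built in part of this difference. Cldn7, a tight junction protein, had 78.5, 75.8, 105 and 61.9 in 24-month rats and was under the floor in all 11-month rats (adjusted p = 0.00446). Epcam lost its call in 11 of 21 alternatives, among them the GAPDH covariate and the fits without rats 1, 2 or 4 of 24 months or rats 1, 2 or 3 of 11 months. None of 12 endothelial, 15 stellate cell and matrix, 3 red cell or 2 adipose markers passed. Of 3 pancreatic markers Cela1, an elastase, was under the floor in all 24-month rats, at 7.43, 20.8, 3.08 and 7.33, against 73.3, 176, 169 and 57.5 in 11-month rats (adjusted p = 0.0041).

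Growth arrest genes that passed were lower at 24 than at 11 months. Of 14 tested p53 and senescence genes 3 were lower, beside 2.32% of all genes, and 0 higher, and the lower count was 1 without rat 2 or 4 of 24 months or rat 3 of 11 months. Cdkn1a, the cell cycle inhibitor p21, had 165, 105, 232 and 106 in 24-month rats and 354, 445, 716 and 484 in 11-month rats (log2 fold change -1.75, SE 0.27, adjusted p = 0.00129), without overlap and in all 21 alternatives. A second Cdkn1a probe set gave -0.74 and did not pass (adjusted p = 0.0809 in the fit of each probe set on its own). Rgn, regucalcin, known for its fall in ageing rat liver, averaged 3174 ± 239 at 24 months and 4283 ± 358 at 11 months (SD, n = 4 each; log2 fold change -0.43, adjusted p = 0.0175), and Mdm2, the p53 ubiquitin ligase, averaged 164 ± 25.8 at 24 months and 280 ± 50.9 at 11 months (SD, n = 4 each; adjusted p = 0.0318). Both calls depended on the setting, being lost in 6 of 21 alternatives for Rgn and 10 of 21 for Mdm2. At 24 against 6 months, in the same limma fit, Cdkn1a (log2 fold change -0.51, adjusted p = 0.313) and Mdm2 (-0.31, adjusted p = 0.399) did not pass. Rgn did (-0.43, adjusted p = 0.0127). Mdm2 averaged 206 at 6 months and 193 at 18 months, both below its 11-month mean. Spink1, a trypsin inhibitor, had 52.3, 60.3, 59.6 and 35.6 in 24-month rats and 179, 381, 190 and 284 in 11-month rats (log2 fold change -2.28, SE 0.26, adjusted p = 7.67e-05).

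The remaining lists are given by their members that passed. Of 38 fatty acid P450s and other phase 1 enzymes tested 4 were lower, namely Akr1c3 (log2 fold change -2.70), Fmo1 (-1.38), the carboxylesterase Ces1d (-1.34) and Cyp4f4 (-0.60), beside 2.32% of all genes. That count was 1 without rat 1 or rat 2 of 24 months and up to 10 with another rat left out, and Ces1d lost its call in 8 of 21 alternatives. Of 18 targets of the stress factor NRF2 the antioxidant enzyme Srxn1 (-0.67) and Ugdh (-0.39) were lower, beside 2.32% of all genes. These calls were lost in 12 of 20 and 10 of 21 alternatives. Slc40a1, the iron exporter ferroportin, was the 1 of 13 metal handling genes that passed, at 832 ± 133 at 24 months and 516 ± 80.5 at 11 months (SD, n = 4 each; adjusted p = 0.0117). Its call was lost with the mean of its probe sets, without rat 4 of 24 months and once the high-GAPDH arrays were left out, and its other probe sets gave 0.10 (adjusted p = 0.945) and 0.51 (adjusted p = 0.21). Psmb10, an immunoproteasome subunit (0.59, adjusted p = 0.0166), was the 1 of 11 for MHC class I presentation, and Jchain, which joins antibody units (1.36, adjusted p = 0.0463), the 1 of 3 for B and plasma cells, a call lost in 14 of 21 alternatives. Of 18 genes of gluconeogenesis and fasting Igfbp1 passed, and of 9 markers of altered foci Gstp1 and Spink1. In either direction 4.92% of all genes passed.

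None of the 10 cell division, 17 heat shock and ER stress, 14 ribosomal protein or 16 clock genes tested passed. The ribosomal protein genes had a median of 0.30 and 12 of 14 positive values, and their mean log2 signal relative to the 11-month mean was 0.21 to 0.29 in the old rats and -0.25 to 0.11 in the mature ones, lowest in rat 1 of 11 months, the array with the highest GAPDH ratio.

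**Figure D3:**
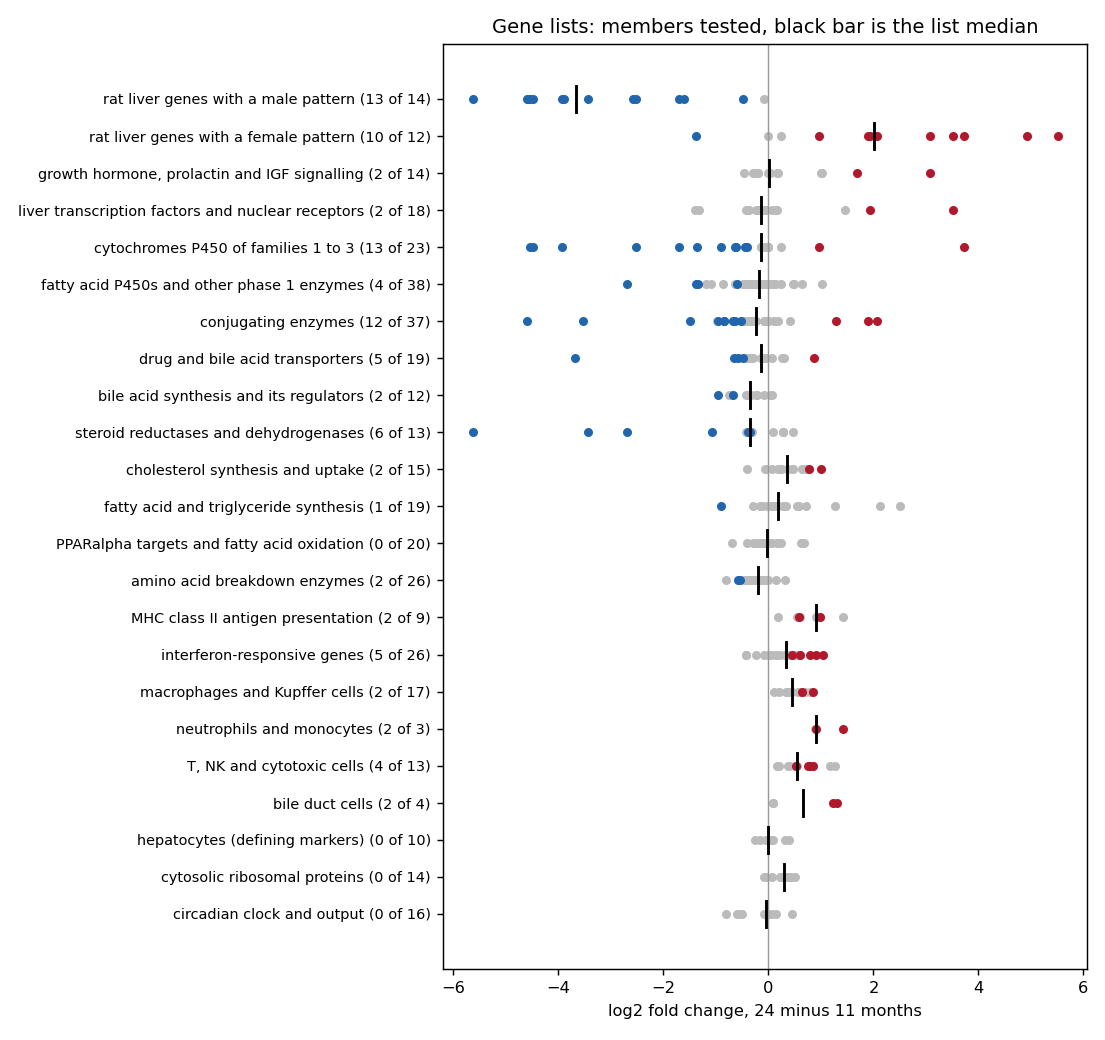
Log2 fold change (24 minus 11 months) of the tested members of 23 gene lists, 1 point per gene, with those that passed in colour (red higher, blue lower), grey for the rest, a black bar at each list's median, and the count that passed in brackets. The male and female lists stand at -3.66 and 2.01, and the medians of the other lists shown lie between -0.36 and 0.91.

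The ages of 6 and 18 months placed the changes in time. Comparisons of 24 with 11, 18 with 11 and 24 with 6 months share arrays, so their tests are not independent of each other. Cyp2c11 averaged 5855 ± 299 at 6, 6038 ± 669 at 11, 5193 ± 960 at 18 and 316 ± 191 at 24 months (SD, n = 4 each), and Cyp2c12 332 ± 79.1, 612 ± 413, 391 ± 419 and 6437 ± 783 at the same 4 ages. Each 18-month rat lay on the side of the 11-month rats for both genes. Rtn4 and Prlr instead had 18-month means between those of 11 and 24 months, with 324, 694, 614 and 180 for Rtn4 and 203, 309, 470 and 290 for Prlr. One 18-month rat in each of these genes lay within the 11-month range.

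Inmt and Stac3 had middle means at 18 months too, with 601, 192, 315 and 405 for Inmt and 1798, 453, 1090 and 358 for Stac3. Cdkn1a had 210, 159, 226 and 229 at 6 months and 220, 108, 163 and 137 at 18 months, so that all 6- and 18-month rats lay below the 11-month rats, though the change from 6 to 11 months did not pass (log2 fold change 1.24, adjusted p = 0.718). The change from 11 to 18 months was tested for each gene in the same fit, and Cdkn1a (log2 fold change -1.67, adjusted p = 0.0224), Lbp (1.69, adjusted p = 0.0225), S100a9 (1.51, adjusted p = 0.0277), RT1-DMa (1.07, adjusted p = 0.0325) and Cela1 (-1.65, adjusted p = 0.0313) passed there. Cyp2c11 (-0.23, adjusted p = 0.876) and Cyp2c12 (-0.84, adjusted p = 0.654) did not.

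**Figure D4:**
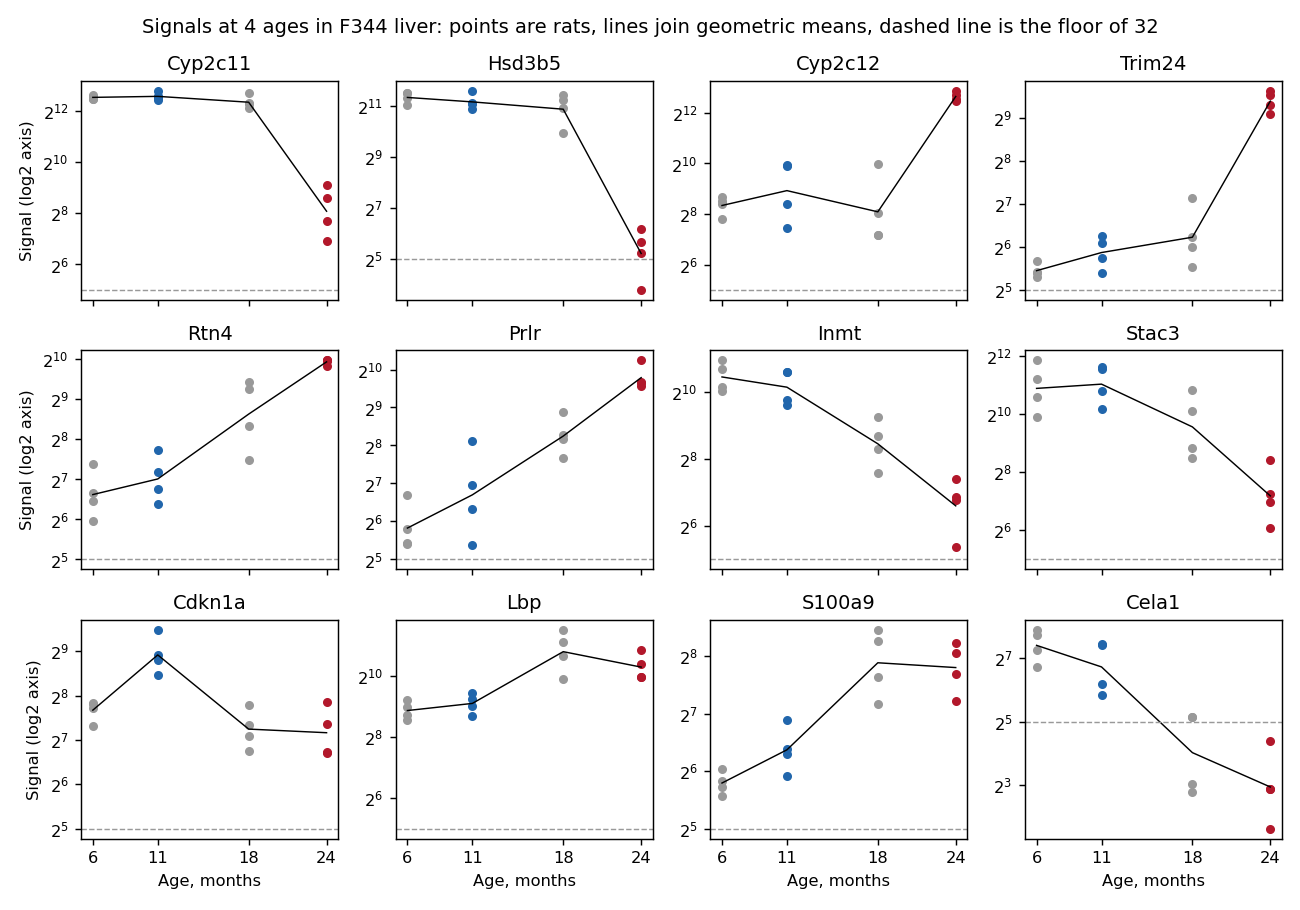
Signals of 12 genes at 6, 11, 18 and 24 months in F344 liver on log2 axes, 4 rats (points) at each age, with lines through geometric means. Cyp2c11, Hsd3b5, Cyp2c12 and Trim24 stand apart at 24 months, the 18-month means of Rtn4, Prlr, Inmt and Stac3 lie between, and Lbp, S100a9 and Cela1 are at 18 months near their 24-month level.

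Most male-pattern genes changed more in F344 males than in Brown Norway males of 24 and 12 months. The arrays of the strains stood apart, with GAPDH ratios of 1.38 to 7.33 in the 8 F344 rats and 0.774 to 0.944 in the 6 Brown Norway rats. Median signals were 45.5 to 47.0 in the F344 rats and 35.6 to 37.8 in the Brown Norway rats, where 52.8% to 54.2% of probe sets exceeded the floor, and the part of this in the differences was not tested. The difference between the 2 strains' changes was tested for 7956 genes and passed for 36 (0.452%), among them 8 of the 13 male-pattern genes with a test. Cyp2c11 had 2129, 4296 and 2524 in Brown Norway rats of 24 months and 4343, 4963 and 5413 at 12 months, a log2 fold change of -0.78 (SE 0.32) that differed from the F344 change by -3.70 (SE 0.43, adjusted p = 2.87e-06). For Hsd3b5 the difference was -5.27 (SE 0.40, adjusted p = 8.24e-10) and for Sult1e1 -4.58 (SE 0.36, adjusted p = 8.24e-10), and both passed in every alternative, while that of Cyp2a2 (-3.42) was lost in 2 of 21. Over the 13 the median log2 fold change in Brown Norway rats was -0.51.

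For Cyp2c12 (3.17, adjusted p = 0.0398), Trim24 (2.35, adjusted p = 0.0464) and Cyp2c13 (-2.33, adjusted p = 0.0436) the difference passed but was lost in 14 of 20, 15 of 20 and 16 of 21 alternatives. Of the 6 Brown Norway signals 1 was under the floor for Cyp2c12 and 2 for Trim24. For Serpinb9b 4 of the 6 were, so that its difference of 3.52 (adjusted p = 8.51e-05) sets the F344 change against a gene mostly not measured in Brown Norway rats. Cdkn1a had log2 fold changes of opposite sign, -1.75 in F344 and 1.39 in Brown Norway rats, the latter without passing (adjusted p = 0.122). Its signals were 169, 295 and 89.1 in Brown Norway rats of 24 months and 51.7, 47.4 and 101 at 12 months, with overlap. The 2 changes differed by -3.14 (SE 0.61, adjusted p = 0.0105). The count of 36 was 16 without rat 2 or rat 4 of the F344 rats of 24 months, 78 without rat 3 of that age, 19 without rat 3 of the F344 rats of 11 months, 86 without rat 3 of the Brown Norway rats of 24 months and 23 without rat 3 of those of 12 months.

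Other large changes were shared in direction by both strains. Stac3 had a fitted log2 fold change of -3.90 (adjusted p = 0.0283) in Brown Norway rats and Inmt one of -3.71 (adjusted p = 0.0177), with 2 of 3 and 1 of 3 old Brown Norway rats under the floor, so that both values are floored and do not give the full size of the drop. Akr1c3 had -1.97 (SE 0.42, adjusted p = 0.0202) there, while in F344 rats all 4 old rats were under the floor. The differences between the strains for these 3 genes did not pass, and their size is not given because 1 side was floored. Dhrs7l1 (-2.44) and Slc22a8 (-1.64) were lower in old Brown Norway rats without passing there. Of 392 genes that passed in F344 rats and were tested in both strains, 320 had the same sign in Brown Norway rats, beside 4756 of all 7956.

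**Figure D5:**
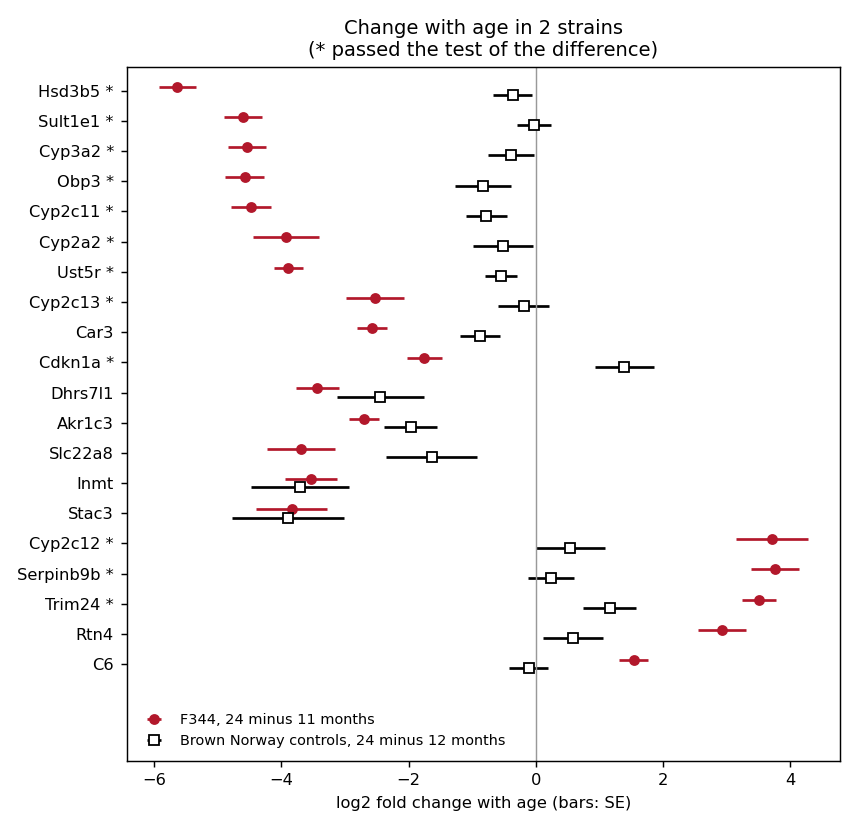
Log2 fold change with age (horizontal, bars are SE) of 20 genes in F344 rats (filled circles, 24 minus 11 months, 4 rats each) and Brown Norway controls (open squares, 24 minus 12 months, 3 rats each); a star marks genes whose difference passed. The 8 male-pattern genes at the top lie far from 0 in F344 rats and nearer to 0 in Brown Norway rats, while Inmt and Stac3, floored in some old Brown Norway rats, have like fitted values.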

How the data were processed

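Per the labels' protocols, total RNA of each liver was extracted with TriReagent, cleaned on a column and hybridised to 1 Affymetrix rat genome array. The deposited table holds an intensity per probe set on a linear scale; MAS5 and RMA are both named, with neither role nor order, per the submitters' processing notes. The sorted signals of the F344 arrays had a median coefficient of variation of 1.47%, so they had been brought close to a common distribution. Precision is limited by the number of arrays.

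Of 24946 probe sets, 17584 had 1 gene symbol, 393 several and 6916 none, by the platform annotation. A check against RefSeq changed 0 of these symbols. Signals under 32 were set to 32 and log2 was taken. Each gene was represented by its probe set of highest mean log2 signal over the 16 F344 arrays, and tested if above the floor on at least 4 of them. Group means of 4 ages were fitted with limma 3.58.1 in R 4.3.3 (12 residual degrees of freedom) and p-values adjusted over all genes by the method of Benjamini and Hochberg. The strains were compared by an interaction contrast in 1 fit of all 34 arrays. The Brown Norway controls of 4 months and the toluene-treated Brown Norway rats entered its spread and its filter, but not the contrast. A fold is a lower bound where any array of the dimmer group was floored. The rats are separate animals; replicate numbers follow accession order. The script was tested on simulated data.

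Genes were named by rule: in each direction, the 10 largest changes that passed without overlap, up to 3 members of smallest p in each of 43 lists, and a fixed set; other list members are given as counts, medians or single fold changes. The genes, lists and tests were chosen with earlier results of these data known. Alternatives, up to 21 for a gene, changed the probe set choice, scaling, floor, filter, variance model, weights, the arrays in the fit, a GAPDH covariate, and left out each array or the 5 F344 arrays with a GAPDH ratio above 2.5. Per-sample columns not used numbered 0.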

Additional observations from a re-analysis of the deposited data

Results flagged for a closer look

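In groups of 4 rats, the gap of the outermost rat to its neighbour, divided by the whole range, was above Dixon's 95% value in 15 of 158 groups examined, and chance alone marks about 1 in 20 groups. At 24 months this was so for Prlr (0.845), Rtn4 (0.904), Obp3 (0.834), Fmo1 (0.920), Klrd1 (0.858), Igf1 (0.959) and Bcl6 (0.866). At 11 months it was so for A1bg (0.888), Cux2 (1), Slco1b2 (0.884), Bckdhb (0.898), Shmt2 (0.861), Klrd1 (1), Stat5b (0.853) and the summed bile duct markers (0.972). In Cux2 and Klrd1 at 11 months 3 of 4 rats stood at the floor, which gives the highest possible value.

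The change with age differed between F344 rats (24 minus 11 months) and Brown Norway controls (24 minus 12 months) by the interaction test for 12 of the named genes. The differences of log2 fold changes were 3.52 for Serpinb9b, 3.17 for Cyp2c12, 2.35 for Trim24, -5.27 for Hsd3b5, -4.58 for Sult1e1, -3.75 for Obp3, -4.15 for Cyp3a2, -3.70 for Cyp2c11, -3.42 for Cyp2a2, -3.34 for Ust5r, -3.14 for Cdkn1a and -2.33 for Cyp2c13. For Serpinb9b, Trim24 and Cyp2c12, 4, 2 and 1 of the 6 Brown Norway signals were under the floor, and for Hsd3b5 1 old F344 rat was, so these differences are not exact. The ages of the mature rats differ by 1 month between the strains.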

How the results depend on the processing

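Of 68 named genes that passed, 31 passed in every alternative run for them, 37 lost their call in at least 1, and 0 changed direction; 44 passed without the arrays of high GAPDH ratio. Of the 20 largest changes 17 passed in every alternative, Scd2, Sult2a2 and Slc22a8 being the others. Leaving out a rat of 24 months ended 25, 17, 5 and 26 of the 68 calls for rats 1 to 4, and leaving out a rat of 11 months 14, 14, 21 and 14. The 453 genes (239 higher, 214 lower) became 294 (147 and 147) with a floor of 8, 1021 (508 and 513) with array quality weights and 277 (143 and 134) with only the 8 arrays compared. They became 137 (79 and 58) with a 2-fold minimum, and 305 (147 and 158) without the arrays of high GAPDH ratio. Leaving out 1 rat gave 183 to 530 genes, 103 to 253 higher and 80 to 277 lower. The 36 genes whose change differed between the strains became 23 with a floor of 8, 13 with only the 14 arrays of the compared groups, and 16 to 86 with 1 array left out. No paired analysis was possible because the labels give no replicate numbers shared between the ages. Dim genes such as Cux2, Akr1c3 and Cldn7 have only bounds on their folds. The causes of these shifts were not tested.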
